A study of Homo sapiens with 21 samples.

Results

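The genes described here encode the heat shock proteins and their partners: the HSP70, HSP110, HSP90, HSP60 and small heat shock proteins, the J-domain proteins (DNAJA, DNAJB and DNAJC), the BAG co-chaperones, the CCT chaperonin subunits and the transcription factors HSF1 and HSF2. They were chosen by a rule on symbols, among protein-coding genes, which gave 86 of 58174 gene identifiers. The members and the gene lists used below were chosen with earlier results of these data known. By family these were 26 DNAJC, 12 DNAJB, 12 HSP70, 7 CCT, 7 small HSP, 6 BAG, 4 DNAJA, 3 HSP90, 3 HSP110, 2 HSP60 and HSP10, 2 HSF and 2 HSP70- or HSP27-binding partners (HSPBP1 and HSPBAP1), with CCT6A standing for CCT6. RNA was sequenced from 21 libraries of OCI-AML5, an established human acute myeloid leukemia cell line, in 7 groups of 3. Cells labelled AML5 had been kept in DMSO for 72 h or in UM171, a small molecule used to expand hematopoietic stem cells in culture, at 500 nM for 6, 24, 48 or 72 h. Cells labelled sgEPCR, which express a CRISPR guide against EPCR (the endothelial protein C receptor, gene PROCR) and are called both EPCR null and EPCR knockdown in the labels, had been kept for 24 h in DMSO or in 500 nM UM171. The labels call these cells a clone and do not say whether the 3 libraries of a group came from 1 clone or from several. The study's text gives another dose than the labels for both the time course and the sgEPCR experiment. It describes the latter with cells of a control guide and with several clones. Dose and times are given here as labelled, and which of these holds is not settled. The labels name no guide in the AML5 cells, and the series text speaks of sorted subsets without naming them. Each UM171 time in AML5 cells was compared with the same DMSO group, labelled 72 h, so a change with time in culture and a change with UM171 cannot be told apart at 6, 24 and 48 h, and the AML5 and sgEPCR controls differ in their labelled time.

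Chaperones bind proteins that are unfolded or partly folded and keep them from aggregating. HSP70 proteins do so in cycles of ATP hydrolysis that J-domain proteins start and that nucleotide exchange factors such as the HSP110 and BAG proteins end, and HSP90 acts later, on clients such as kinases and steroid receptors. HSP60 with HSP10 in mitochondria and CCT in the cytosol are barrel-shaped chambers, and CCT folds actin and tubulin. HSF1 is the main transcription factor of the heat shock response and binds heat shock elements in promoters such as those of HSPA1A and HSPA8, whereas the unfolded protein response of the endoplasmic reticulum acts on HSPA5 and HSP90B1 through endoplasmic reticulum stress elements. Leukemia cells are known to express many of these genes at high levels without heat.

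The promoter stretches printed here are those of members that hold the elements searched, with the heat-inducible pair HSPA1A and HSPA1B; DNAJB6, among them, was called in none of the 8 comparisons. Promoters running from 250 bases before to 50 after the start were found for 77 of the 86 genes (RefSeq, GRCh38.p14). The heat shock element was searched on both strands as 3 alternating units of GAA and TTC with 2 free bases between units, and was present in 4 of 77 members (5.19%) and in 0.487% of all 27305 promoters. The 4 genes were HSPA8, with 2 matches, HSPA6, DNAJA1 and DNAJB6. The endoplasmic reticulum stress element, CCAAT and CCACG with 9 free bases between them, on either strand, was present in HSPA5 and HSP90B1 (2 of 77 members, 2.60%) and in 0.0806% of all promoters. The shorter 2-unit element, GAA and TTC in either order with 2 free bases between, which lies inside every 3-unit element and was added after the first search, was in 16 of 77 members (20.8%) and in 13.7% of all promoters, HSPA1A and HSPA1B among them. Each stretch below is given 5′ to 3′ on the strand of its gene, with the matched elements in capitals.
HSPA8 (chr11:123062164-123062381, minus strand, elements between positions -230 and -43 from the start): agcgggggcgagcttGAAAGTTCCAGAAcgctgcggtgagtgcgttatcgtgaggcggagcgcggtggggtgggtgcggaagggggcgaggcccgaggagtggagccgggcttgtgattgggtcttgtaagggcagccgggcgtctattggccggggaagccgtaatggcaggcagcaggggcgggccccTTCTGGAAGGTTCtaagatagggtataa
HSPA6 (chr1:161524451-161524493, plus strand): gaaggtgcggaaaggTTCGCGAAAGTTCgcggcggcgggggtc
DNAJA1 (chr9:33025261-33025303, plus strand): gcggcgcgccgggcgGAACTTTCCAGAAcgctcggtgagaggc
DNAJB6 (chr7:157336858-157336900, plus strand): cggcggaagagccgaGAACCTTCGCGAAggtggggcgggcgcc
HSPA1A (chr6:31815422-31815459, plus strand): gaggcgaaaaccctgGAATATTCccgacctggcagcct
HSPA1B (chr6:31827618-31827655, plus strand): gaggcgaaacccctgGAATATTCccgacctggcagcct
HSPA5 (chr9:125241376-125241424, minus strand): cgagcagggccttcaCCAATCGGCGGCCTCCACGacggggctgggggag
HSP90B1 (chr12:103930201-103930354, plus strand): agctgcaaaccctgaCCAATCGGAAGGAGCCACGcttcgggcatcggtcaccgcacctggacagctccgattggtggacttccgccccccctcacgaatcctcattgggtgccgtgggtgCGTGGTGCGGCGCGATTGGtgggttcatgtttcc
HSPA1A and HSPA1B share nearly the same promoter stretch and encode nearly the same protein. RSEM split their shared reads with a posterior SD of at most 4.11% of the mean count for HSPA1A and 2.82% for HSPA1B, so their separate levels are given with their sum.

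Libraries held 24.3 to 51.5 M expected counts, the number of reads assigned to genes (median 33.9 M). The 37 mitochondrial genes took 7.73 to 13.5% of counts in 19 libraries, but 35.9% in replicate 1 of sgEPCR DMSO and 32.2% in replicate 2 of sgEPCR UM171. Counts on sgEPCR cells at the main threshold are given with and without these 2 libraries, and the members whose call ended without them are named. PROCR, the targeted gene, stood at 3.37 to 4.30 TPM (a level per transcript length, scaled to the same sum in each library) in DMSO and at 2.30 to 4.53 TPM in sgEPCR DMSO, so its level did not set the clones apart without UM171. In UM171 for 24 h it reached 48.5 TPM in AML5 cells and 4.23 to 8.94 TPM in sgEPCR cells. The myeloid genes CD33, SPI1 and PTPRC were present in all 7 groups (CD33 at 34.6 TPM or more in each library), whereas MPO was at 0.48 to 9.08 TPM. The 8 markers of other cell types summed to 0.75 TPM in DMSO and 17.7 TPM at 72 h, nearly all of it CD3D (16.1 TPM at 72 h), with CD3E at or under 0.11 TPM and MS4A1 at 0 in every library. The part of these 8 genes in the results was not tested. In bulk RNA, fewer cells expressing a gene and less RNA per cell cannot be told apart.

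The 86 genes together summed to 13519 ± 247 TPM in DMSO (SD, n = 3). Their sum was 11299 ± 24.0 TPM at 6 h, 14352 ± 372 TPM at 24 h, 14368 ± 530 TPM at 48 h and 8213 ± 47.0 TPM at 72 h, so the 72 h libraries stood below every other AML5 library. In sgEPCR cells the sum was 10438, 16592 and 17135 TPM in DMSO and 14550, 9379 and 14511 TPM in UM171, and the low value of each group was the library of high mitochondrial share. HSPA8, the constitutive cytosolic HSP70, was the most abundant member and made up 24.0, 24.1 and 24.2% of the sum in the DMSO libraries against 12.8, 11.7 and 11.6% at 72 h. Of the 86 genes, 75 had enough counts to be tested, the same 75 in the fit of the 15 AML5 libraries and in the fit of the 12 libraries of the sgEPCR comparison. The other 11 never passed 5 counts in a library: DNAJB13 (at most 5 counts), DNAJB8, HSPA12B and HSPB9 (2), DNAJC22 and HSPB7 (1), and DNAJB7, HSPA12A, HSPB2, HSPB3 and HSPB8 (0).

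**Figure D1:**
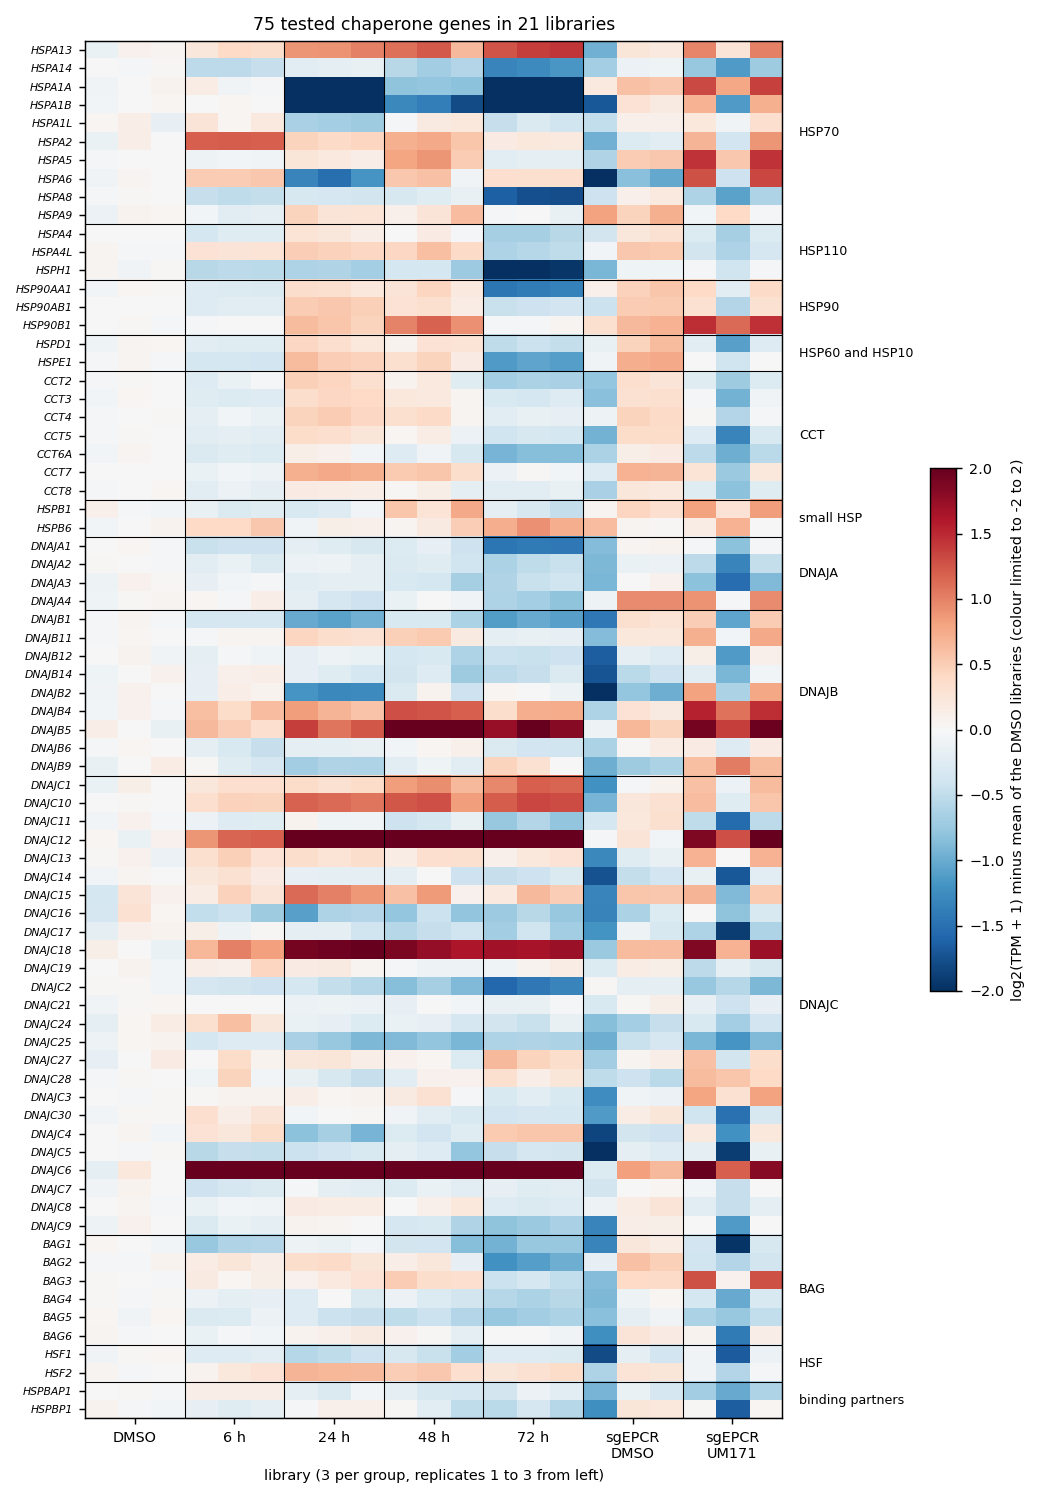
Each row is 1 of the 75 tested genes, grouped by family, and each column 1 of the 21 libraries; the colour is log2(TPM + 1) minus the mean of the DMSO libraries, limited to -2 to 2. The blue block of HSPA1A and HSPA1B at 24 and 72 h, the red rows of DNAJC6, DNAJC12, DNAJC18 and DNAJB5 in UM171, and the columns of the 2 sgEPCR libraries of high mitochondrial share stand out.

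A gene was called higher or lower at an adjusted p under 0.05 (edgeR's quasi-likelihood test, Benjamini-Hochberg over all tested genes) and a change over 1.5-fold. At 6 h of UM171, 6 of the 75 members were called higher and 7 lower, beside 19.0% of all 16575 tested genes higher and 4.22% lower. The median log2 fold change of the members was -0.24, against 0.02 over all genes. This split depended on scaling: it was 6 higher and 3 lower with upper quartile scaling and 7 higher and 1 lower with total count scaling, which moved the median of all genes to 0.12 and 0.20. The 1 gene still called lower at 6 h under both was BAG1 (-0.71 and -0.63), while DNAJA1, DNAJC5, HSPA8, HSPA14 and HSPH1 kept values below 0 without the call under total count scaling. At 24 h, 11 members were higher and 12 lower (19.8% and 16.3% of all genes), with a median of -0.02 beside -0.01. At 48 h, 13 were higher and 8 lower (23.1% and 17.0% of all genes), with medians under 0.01 in size for members and for all genes. At 72 h, 9 were higher and 25 lower, beside 26.9% and 19.3% of all genes, and the median of the members was -0.43 beside 0.02. In all, 47 members were called at 1 or more times, 4 of them higher at all 4 times and 0 lower at all 4. The matching shares of all genes were not counted, so whether these numbers are particular to the members was not tested. The 4 times share their DMSO libraries. Nothing in the labels says that replicates came from separate cultures, so p-values measure the spread between these libraries, which may be technical.

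The excess of lower calls at 72 h did not rest on the 1.5-fold minimum. With no minimum fold the members called were 16 higher and 48 lower (31.8% and 30.3%) at 6 h and 30 higher and 31 lower (34.9% and 34.8%) at 24 h, the shares of all tested genes standing in parentheses. At the later times they were 30 higher and 34 lower (37.1% and 35.0%) at 48 h and 15 higher and 53 lower (38.8% and 36.8%) at 72 h. With an adjusted p under 0.0001 and over 2-fold they were 4 higher and 0 lower (6.78% and 0.247%) at 6 h and 5 higher and 6 lower (9.03% and 4.70%) at 24 h. The later times gave 8 higher and 1 lower (11.7% and 4.67%) at 48 h and 8 higher and 12 lower (15% and 5.80%) at 72 h.

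Of 12 heat-inducible members of the cytosol (HSPA1A, HSPA1B, HSPA6, HSPA8, HSPH1, HSPA4L, HSP90AA1, HSPB1, DNAJA1, DNAJB1, DNAJB4 and BAG3), 0 were called higher and 3 lower at 6 h, 1 higher and 5 lower at 24 h, 1 higher and 2 lower at 48 h, and 1 higher and 8 lower at 72 h. The shares of all genes called lower at these times were 4.22, 16.3, 17.0 and 19.3%, and those called higher 19.0, 19.8, 23.1 and 26.9%. Their summed level was 5904 to 6066 TPM in DMSO and 2127 to 2275 TPM at 72 h, without overlap. The largest part of this sum was HSPA8, the constitutive cytosolic HSP70, so its fall was largely that of HSPA8. HSPA1A, the stress-inducible HSP70, stood at 121, 128 and 134 TPM in DMSO, 142, 121 and 124 TPM at 6 h, 30.7, 28.7 and 28 TPM at 24 h, 73.0, 74.3 and 71.8 TPM at 48 h, and 19.5, 20.1 and 19.0 TPM at 72 h. The 6 h libraries overlapped DMSO, and those of the other 3 times were all below it, with 48 h between. HSPA1A fell by a log2 fold change of -2.16 ± 0.06 (SE) at 24 h (adjusted p = 2e-14), by -0.80 ± 0.06 at 48 h (adjusted p = 2e-09) and by -2.85 ± 0.07, or 7.23-fold, at 72 h (adjusted p = 5.6e-16). HSPA1B followed the same course, from 156, 163 and 168 TPM in DMSO to 39.0, 37.8 and 37.8 TPM at 24 h, 66.1, 61.5 and 46.0 TPM at 48 h and 25.8, 26.9 and 25.3 TPM at 72 h. The sum of this pair fell from 290 ± 12.2 TPM to 67.4 ± 2.11 TPM at 24 h and 45.5 ± 1.35 TPM at 72 h.

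HSPA6, a heat-inducible HSP70 found in humans and absent from mice, differed from this pair at 72 h. It stood at 12.6, 13.7 and 13.3 TPM in DMSO, fell to 4.66, 4.0 and 5.25 TPM at 24 h (log2 fold change -1.57 ± 0.10, adjusted p = 5.1e-10), and was at 16.9, 16.7 and 16.8 TPM at 72 h, above DMSO in every library but under the fold required (0.28 ± 0.09). HSPA8, whose promoter holds 2 heat shock elements, stood at 3174, 3316 and 3288 TPM in DMSO and 1049, 966 and 951 TPM at 72 h, a 3.58-fold fall (adjusted p = 1.9e-14). It was also lower at 6 h, at 2363, 2296 and 2342 TPM (log2 fold change -0.69), and by less than the fold required at 24 and 48 h (-0.41 and -0.28). HSPH1, an HSP110 exchange factor for HSP70, fell from 342, 312 and 336 TPM to 77.8, 81.5 and 84.7 TPM at 72 h (-2.04 ± 0.04, adjusted p = 2.8e-16). It was lower at 6 h (-0.68) and 24 h (-0.65) as well. Its relatives HSPA4 (-0.62) and HSPA4L (-0.73) fell at 72 h alone among the 4 times. HSPA14, a ribosome-bound HSP70, fell at 6 h (-0.69), 48 h (-0.61) and 72 h, from 50.3 to 52.6 TPM in DMSO to 20.1 to 22.5 TPM at 72 h (-1.44).

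**Figure D2:**
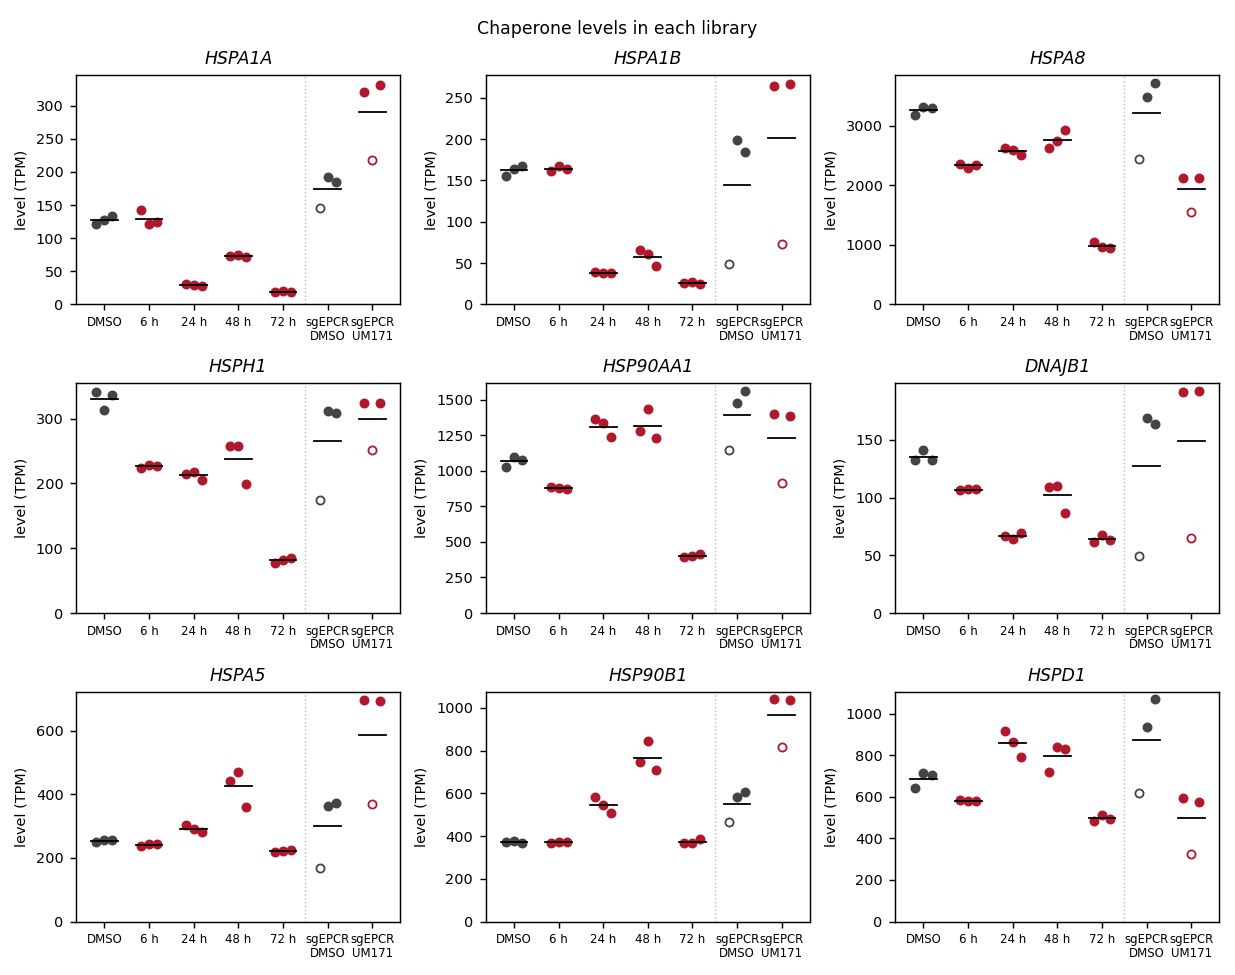
Levels in TPM of 9 chaperone genes in each of the 21 libraries: points are libraries, black bars group means, red marks UM171 and grey DMSO, and open points are the 2 sgEPCR libraries of high mitochondrial share. HSPA1A and HSPA1B are low at 24 and 72 h in AML5 cells and high in sgEPCR cells in UM171, and HSPA8, HSPH1 and HSP90AA1 are lowest at 72 h.

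The cytosolic HSP90 genes did not move together. HSP90AA1, the inducible form, stood at 1027, 1096 and 1080 TPM in DMSO and fell to 392, 403 and 417 TPM at 72 h (log2 fold change -1.44 ± 0.05, adjusted p = 4.3e-14). HSP90AB1, the constitutive form, was at 998, 998 and 1002 TPM in DMSO and 735, 749 and 766 TPM at 72 h, below DMSO in every library and under the fold required (-0.48 ± 0.04). At 24 h both were above DMSO in every library by less than the fold required (0.30 and 0.47). HSPB1, the small heat shock protein HSP27, was at 508 to 569 TPM in DMSO, 643 to 898 TPM at 48 h and 380 to 466 TPM at 72 h and was called at no time. HSPB6, the only other small heat shock protein that was tested, stood at 0.25 to 0.37 TPM in DMSO and 1.15 to 1.46 TPM at 72 h and was called higher at 6 h (1.18), 48 h (0.85) and 72 h (1.97).

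Among the J-domain proteins that serve HSP70 in the cytosol, DNAJB1 and DNAJA1 fell, whereas DNAJA2 (-0.12 to -0.48) and DNAJB6 (-0.01 to -0.52) were called at no time. DNAJB1, which pairs with HSPA1A in stress, fell from 133, 141 and 133 TPM to 67.1, 63.8 and 69.1 TPM at 24 h (-1.07 ± 0.04, adjusted p = 5.6e-13) and to 61.8, 67.2 and 63.3 TPM at 72 h (-1.17). DNAJA1 fell from 288 to 300 TPM in DMSO to 107 to 109 TPM at 72 h (-1.5), and it was lower at 6 h too (-0.59). DNAJB4, a heat-inducible relative of DNAJB1, rose at 24 h (0.92), 48 h (1.45) and 72 h (0.62), from 6.34 to 7.11 TPM in DMSO to 16.4 to 17.6 TPM at 48 h. DNAJB2, a J protein with ubiquitin-interacting motifs, fell at 24 h only among the 4 times, from 16.2, 18.1 and 16.9 TPM to 6.95, 6.40 and 6.48 TPM (-1.29 ± 0.06, adjusted p = 7.1e-12). DNAJC2, a ribosome-bound J protein also called ZRF1, fell at 48 h (-0.76) and 72 h (-1.52), and DNAJC25 fell at 24, 48 and 72 h (-0.90, -0.96 and -0.76). DNAJC16 fell at 6, 24 and 48 h, from 3.52 to 6.00 TPM in DMSO to 1.69 to 2.81 TPM at 24 h. DNAJC5, the cysteine string protein of secretory vesicles, fell at 6 h (-0.68), with values of -0.37 to -0.47 at the later times.

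DNAJC6, DNAJC12, DNAJC18 and DNAJB5 were the 4 genes called higher at all 4 times. DNAJC6, or auxilin, which uncoats clathrin vesicles, rose from 0.72, 1.28 and 0.97 TPM in DMSO to 8.28, 8.33 and 7.85 TPM at 6 h and 16.2, 16.5 and 14.1 TPM at 24 h, and was at 7.86, 8.05 and 9.11 TPM at 72 h. DNAJC6 rose by 2.71 ± 0.08 on the log2 scale at 6 h and by 3.68 ± 0.07 at 24 h (adjusted p = 3.2e-16). DNAJC12, a co-chaperone of the aromatic amino acid hydroxylases, was nearly silent in DMSO, at 0.16, 0.04 and 0.21 TPM, and reached 4.24, 4.36 and 4.25 TPM at 24 h and 3.86, 5.01 and 5.01 TPM at 72 h (4.93 ± 0.26, adjusted p = 1.8e-11). DNAJB5 rose from 0.45, 0.34 and 0.20 TPM to 4.84, 4.48 and 4.49 TPM at 48 h (4.10 ± 0.15). DNAJC18 rose from 5.87, 5.39 and 4.77 TPM to 22.7, 23.4 and 25.0 TPM at 24 h (1.97 ± 0.06). In all 4 genes, which were picked by their calls, no UM171 library of AML5 cells overlapped DMSO. HSPA2, an HSP70 best known from the testis, differed in its timing: it stood at 1.66, 2.18 and 1.91 TPM in DMSO, 5.64, 5.73 and 5.63 TPM at 6 h (1.42 ± 0.08, adjusted p = 5.3e-10), 2.78 to 2.96 TPM at 24 h and 3.26 to 3.93 TPM at 48 h (0.95).

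Of 8 members that act in the endoplasmic reticulum, 3 were called higher and 1 lower at 24 h (19.8% and 16.3% of all genes), 5 higher and 0 lower at 48 h (23.1% and 17.0%), and 3 higher and 0 lower at 72 h (26.9% and 19.3%). Their summed level went from 838 to 860 TPM in DMSO to 1368 to 1710 TPM at 48 h and 918 to 965 TPM at 72 h. HSPA5 (BiP, the HSP70 of this compartment), whose promoter holds an endoplasmic reticulum stress element, stood at 252, 257 and 255 TPM in DMSO, 303, 291 and 280 TPM at 24 h, 442, 471 and 362 TPM at 48 h and 218, 223 and 224 TPM at 72 h. Every 48 h library was above DMSO and every 72 h library below it, and only the 48 h change was past the threshold (0.76 ± 0.04, adjusted p = 1.7e-11). HSP90B1 (GRP94), with 2 such elements, followed at 374, 379 and 368 TPM in DMSO and 748, 845 and 709 TPM at 48 h (1.08 ± 0.04, adjusted p = 6.2e-13), was already higher at 24 h (0.60) and was at 366 to 388 TPM at 72 h (0.01).

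HSPA13, DNAJC10 and DNAJC1 stayed high at 72 h, unlike HSPA5 and HSP90B1. HSPA13, a microsomal HSP70, rose from 15.3, 18 and 17.5 TPM to 32.0, 32.2 and 35.0 TPM at 24 h and 42.0, 45.6 and 47.3 TPM at 72 h (1.37 ± 0.06, adjusted p = 2e-12). DNAJC10, or ERdj5, a disulfide reductase, rose from 62.5 to 64.3 TPM to 133 to 145 TPM at 24 h and 147 to 160 TPM at 72 h (1.30 ± 0.04). DNAJC1 rose at 48 h (0.86) and 72 h (1.06). DNAJB9, or ERdj4, which holds the stress sensor IRE1 inactive, fell at 24 h from 11.6, 13.0 and 14.4 TPM to 7.64, 8.16 and 8.07 TPM (-0.79 ± 0.09, adjusted p = 5.3e-07) and was at 12.9 to 18 TPM at 72 h. DNAJB11 (0.39 at 48 h) and DNAJC3 (-0.43 at 72 h) were called at no time.

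**Figure D3:**
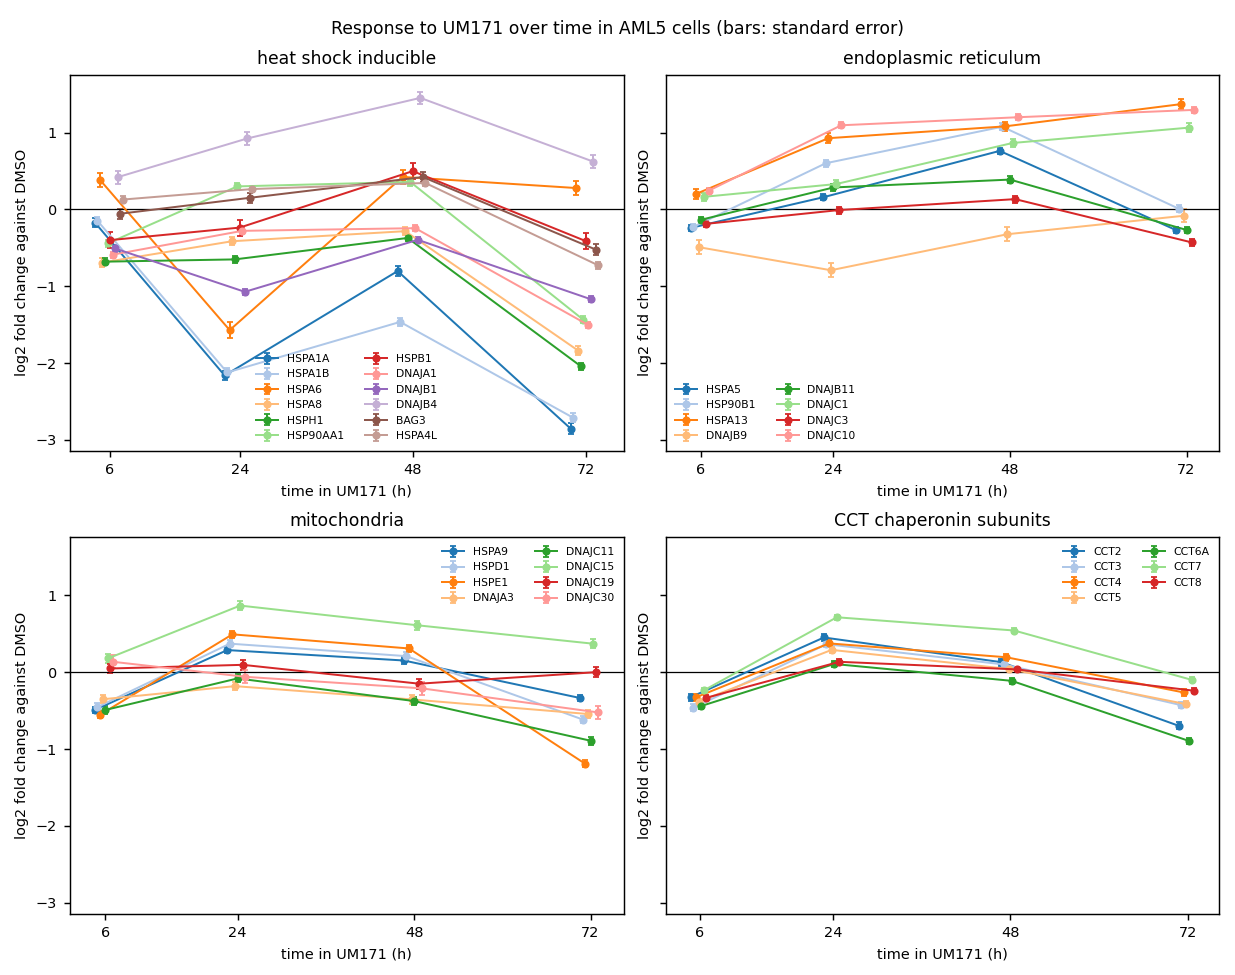
Log2 fold change against DMSO (bars, SE) of 4 groups of members at 6, 24, 48 and 72 h of UM171 in AML5 cells, with points of a time set slightly apart. Most heat-inducible genes reach their lowest value at 72 h, HSPA5 and HSP90B1 peak at 48 h, and the CCT subunits lie above 0 at 24 h and below 0 at 6 and 72 h.

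The mitochondrial and CCT chaperonins moved less in AML5 cells. All 7 CCT subunits had a log2 fold change below 0 at 6 h (-0.24 to -0.46), above 0 at 24 h (0.11 to 0.71) and below 0 at 72 h (-0.10 to -0.90). The 7 signs at 6 h were the same under upper quartile and total count scaling and with limma. Of these, CCT7 at 24 h (277 to 282 TPM in DMSO, 456 to 471 TPM at 24 h) was called higher and CCT2 (-0.70) and CCT6A (-0.90) lower at 72 h. HSPD1 and HSPE1, the HSP60 and HSP10 of mitochondria, fell at 72 h, HSPE1 from 393, 422 and 399 TPM to 183, 193 and 189 TPM (-1.19 ± 0.05, adjusted p = 2.4e-13) and HSPD1 from 643, 714 and 704 TPM to 484, 512 and 495 TPM (-0.62). HSPA9, the mitochondrial HSP70 or mortalin (271 to 307 TPM in DMSO, 265 to 292 TPM at 72 h), and its J protein DNAJA3 (-0.54 at 72 h) were called at no time. Of the 8 mitochondrial members, 1 (DNAJC15) was higher at 24 h and at 48 h, and 3 (HSPD1, HSPE1 and DNAJC11) were lower at 72 h. The shares of all genes were 19.8% higher at 24 h, 23.1% higher at 48 h and 19.3% lower at 72 h.

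Of the factors that act on HSP70 and on transcription, BAG1 fell at 6 h (from 104 to 111 TPM to 63.3 to 71.4 TPM), 48 h and 72 h, and BAG2, an inhibitor of the ubiquitin ligase CHIP, fell at 72 h from 8.38 to 9.07 TPM to 3.14 to 3.88 TPM (-1.37 ± 0.07, adjusted p = 4.4e-12). BAG3, a heat-inducible factor of selective autophagy, was at 40.6 to 41.9 TPM in DMSO, 52.3 to 58.9 TPM at 48 h and 29.1 to 32.6 TPM at 72 h and was called at no time. HSF1 was below DMSO in every UM171 library of AML5 cells (78.3 to 85.1 TPM against 50.3 to 70.1 TPM) with log2 fold changes of -0.34 to -0.56, under the fold required. HSF2 rose at 24 h, from 15.3 to 16.4 TPM to 25.3 to 25.7 TPM (0.66 ± 0.05, adjusted p = 3.2e-09), and stood at 18.9 to 20.6 TPM at 72 h.

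Genes of the same pathways that are not among the 86 were read alongside, beside shares of all genes called higher and lower of 19.0% and 4.22% at 6 h, 19.8% and 16.3% at 24 h, 23.1% and 17.0% at 48 h and 26.9% and 19.3% at 72 h. Of 22 genes of the unfolded protein response and of folding in the endoplasmic reticulum, 0 were called higher or lower at 6 h, 4 higher and 2 lower at 24 h, 12 higher and 0 lower at 48 h, and 9 higher and 2 lower at 72 h. The largest changes at 48 h were PDIA4, a disulfide isomerase (1.28), and SIL1, an exchange factor for HSPA5 (1.15). At 72 h they were ATF4, a transcription factor of the integrated stress response (1.31), and DDIT3 (CHOP, 1.19). Of 13 co-chaperones of HSP90 and HSP70, 2 were higher at 24 h (FKBP5, 0.82, and FKBP4, 0.75), 3 higher and 1 lower at 48 h, and 5 lower at 72 h, CHORDC1 (-1.29) and TTC4 (-0.91) the most. Of 10 other mitochondrial chaperones and proteases, 2 were lower at 6 h, and the protease subunit CLPP was the 1 higher gene at 24 h (0.67) and 48 h (0.80), and 1 was lower at 72 h. Among TCP1, which is the remaining CCT subunit, PDCL3 and 6 prefoldins, PFDN4 was the 1 higher gene at 24 h (0.68), 1 was higher and 1 lower at 48 h, and PDCL3 (-1.0) and TCP1 (-0.81) were lower at 72 h. Of 6 tested other heat shock genes, HSF4 fell at 24 h, from 3.39 to 3.93 TPM to 0.59 to 1.11 TPM (-2.37), and at 48 h (-1.75), and SERPINH1, the collagen chaperone, was higher at all 4 times (3.80 at 72 h) from 0.02 to 0.14 TPM in DMSO.

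In sgEPCR cells, 24 h of UM171 called 15 of 75 members higher and 23 lower, beside 21.5% of all 15901 tested genes higher and 16.6% lower. Without the 2 libraries of high mitochondrial share the counts were 16 higher and 24 lower (23.1% and 18.1% of all genes). The split depended on scaling, with 16 higher and 15 lower under upper quartile scaling and 17 higher and 11 lower under total count scaling, which moved the median of all genes to 0.16. The interaction, which tests whether the response of sgEPCR cells differed from that of AML5 cells at 24 h, called 11 members higher and 23 lower (19.2% and 19.7% of all genes), and 12 higher and 26 lower without the 2 libraries (23.4% and 23.5%). It was 16 higher and 19 lower under upper quartile scaling and 14 higher and 16 lower under total count scaling, which moved the median of all genes to 0.12 in both cases. By the interaction test, 4 of the 12 heat-inducible members (HSPA1A, HSPA1B, HSPA6 and DNAJB1) responded more in the higher direction in sgEPCR cells. Of the others on this list, 2 (HSPA4L and HSP90AA1) responded more in the lower direction and 6 were not called. The chaperonins, the cytosolic HSP90 genes and mitochondrial HSP70 also responded more in the lower direction.

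**Figure D4:**
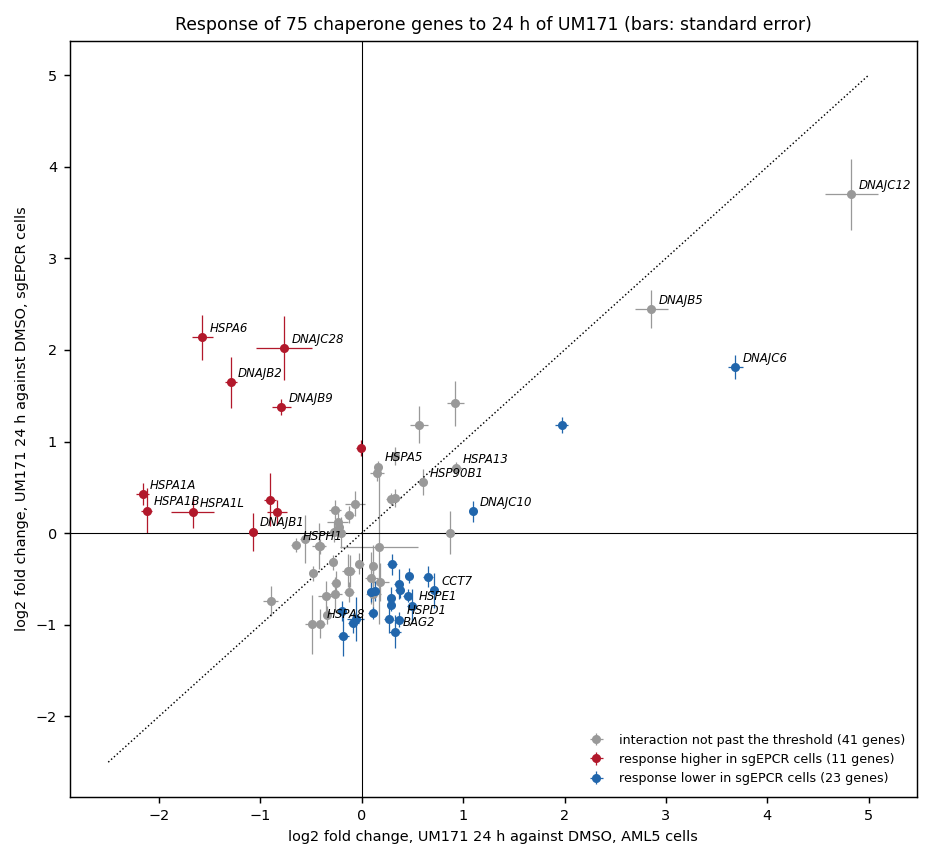
Log2 fold change to 24 h of UM171 in AML5 cells (horizontal) against that in sgEPCR cells (vertical) for the 75 tested genes, with SE bars; the dotted line marks equal responses. Red marks the 11 genes with a higher and blue the 23 with a lower response in sgEPCR cells by the interaction test, and HSPA6, DNAJB2, DNAJB9 and DNAJC28 fall at the left and above 0.

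HSPA1A, which fell in AML5 cells at 24 h, stood at 146, 192 and 185 TPM in sgEPCR DMSO and 320, 218 and 331 TPM in sgEPCR UM171. All 3 treated libraries were above the 3 controls, with a log2 fold change of 0.43 ± 0.12 that was under the fold required, and the difference between the responses was 2.58 ± 0.18 (adjusted p = 1.7e-06) and 2.77 without the 2 libraries. HSPA1B stood at 49.2, 199 and 185 TPM in DMSO and 265, 73.4 and 266 TPM in UM171, where the low value of each group was again the library of high mitochondrial share (interaction 2.36 ± 0.36, adjusted p = 0.00033, and 2.39 without them). HSPA6 was at 1.84, 6.92 and 6.02 TPM in sgEPCR DMSO and 33.2, 9.61 and 35.0 TPM in UM171, without overlap. It rose (2.14 ± 0.25, adjusted p = 3.5e-05), and its response differed from that of AML5 cells by 3.69 ± 0.35 (adjusted p = 1.4e-05). DNAJB1 was at 49.6, 169 and 164 TPM in DMSO and 191, 64.8 and 192 TPM in UM171, where the groups overlapped, and the interaction was 1.08 ± 0.30 (adjusted p = 0.012). Of the 12 heat-inducible members, 3 rose and 2 (HSPA8 and HSPA4L) fell in sgEPCR cells, beside 21.5% of all genes higher and 16.6% lower. The 3 were HSPA6, DNAJB4 (1.42) and BAG3 (0.65). Without the 2 libraries 4 rose, HSPA1A included, and 2 fell (23.1% and 18.1% of all genes).

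Other members moved in opposite directions in the AML5 and sgEPCR cells. CCT7, DNAJB2, DNAJB9, DNAJC28 and HSPA6 were the 5 members called in opposite directions at 24 h. How many of all genes were so called was not counted, so this number has no background to be read against. DNAJB2 went from 3.10, 9.59 and 8.21 TPM to 30.6, 10.7 and 29.7 TPM in sgEPCR cells (1.65 ± 0.28), against a fall in AML5 cells (interaction 2.93 ± 0.39, adjusted p = 0.00015). DNAJB9 rose without overlap from 6.07, 7.52 and 7.98 TPM to 20.2, 27.2 and 20.5 TPM (interaction 2.17 ± 0.13, adjusted p = 6.9e-07). DNAJC28, which was at 0.35 to 0.46 TPM in sgEPCR DMSO and 1.57 to 2.04 TPM in UM171, rose by 2.02 ± 0.35 on the log2 scale.

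In the endoplasmic reticulum, 4 of 8 members rose in sgEPCR cells and 0 fell, with the same counts without the 2 libraries. Of all genes, 21.5% were called higher and 16.6% lower, or 23.1% and 18.1% without the 2 libraries. HSPA5 rose from 168, 364 and 372 TPM to 697, 371 and 695 TPM (0.72 ± 0.07, adjusted p = 5.9e-06); its interaction (0.56 ± 0.09) was under the fold required. HSP90B1 went from 468, 584 and 605 TPM to 1043, 818 and 1035 TPM, without overlap but under the fold required (0.56), with an interaction of -0.05 ± 0.21. DNAJC3, or P58IPK, an inhibitor of the kinase PERK, rose in sgEPCR cells (0.93 ± 0.09) and had no call in AML5 cells (interaction 0.94, adjusted p = 0.00015). HSPA13 rose in both (0.71 in sgEPCR cells), while DNAJC10, at 0.24 in sgEPCR cells, responded less than in AML5 cells (interaction -0.86, adjusted p = 0.0014).

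The chaperonins responded in the lower direction. All 7 CCT subunits were called lower by the interaction, by -0.77 (CCT8) to -1.35 (CCT7) with a median of -1.0. All 7 were also called without the 2 libraries. Of all genes, the interaction called 19.7% lower, and 23.5% without the 2 libraries. With limma on log2(TPM + 1) the interaction called only 5 members of all families lower, so not every CCT call held. CCT5 went from 258, 644 and 646 TPM to 417, 200 and 405 TPM in sgEPCR cells (-0.79 ± 0.07, adjusted p = 3.4e-06) and CCT7 from 234, 451 and 450 TPM to 337, 167 and 324 TPM (-0.63), each with overlap that came from the libraries of high mitochondrial share. HSPD1 fell from 617, 936 and 1070 TPM to 596, 324 and 575 TPM (-0.95 ± 0.08, adjusted p = 3.6e-06; interaction -1.32) and HSPE1 from 384, 666 and 682 TPM to 407, 307 and 402 TPM (-0.79; interaction -1.29). HSPA9 (-0.71, interaction -1.0) and DNAJA3 (-1.13, interaction -0.95) fell as well. Of the 8 mitochondrial members 6 fell and 0 rose, beside 16.6% of all genes lower and 21.5% higher. Without the 2 libraries 7 fell, beside 18.1% of all genes lower. The HSP110 relatives HSPA4 (-0.64; interaction -0.74) and HSPA4L (-0.94; interaction -1.21) and the ribosome-bound HSPA14 (-0.84; interaction -0.65) fell too. DNAJC17 was the 1 member whose call on the response ended without the 2 libraries (-0.54). HSPA8 fell from 2448, 3484 and 3719 TPM to 2125, 1558 and 2118 TPM (-0.99 ± 0.16, adjusted p = 0.00035), with an interaction of -0.58 that did not pass (adjusted p = 0.053). HSP90AB1 had a log2 fold change of 0.47 in AML5 cells and -0.46 in sgEPCR cells (interaction -0.94), and HSP90AA1 one of 0.30 and -0.34 (interaction -0.64), each response being under the fold required. The call on HSP90AA1 ended with offsets for GC content (-0.54), under the fold required. HSF2 had a log2 fold change of -0.47 in sgEPCR cells, under the fold required, and an interaction of -1.14 (adjusted p = 0.00021).

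**Figure D5:**
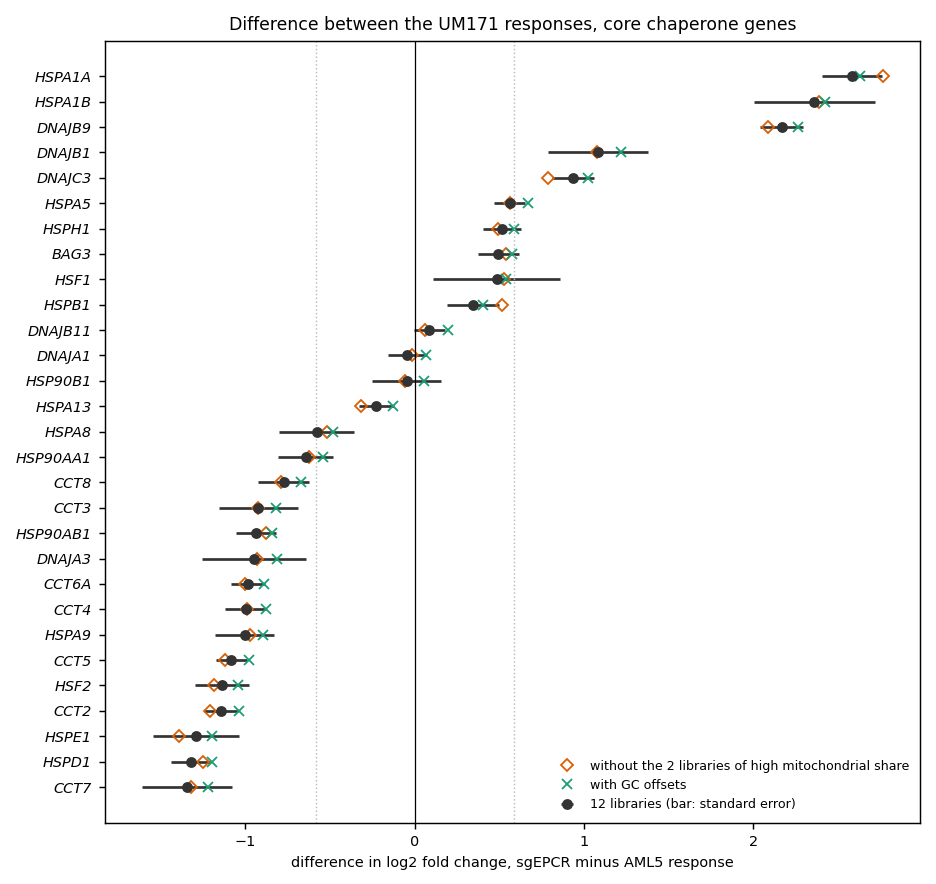
Difference between the response to UM171 in sgEPCR cells and in AML5 cells (log2 scale) for the 29 core chaperone genes: circles with SE bars use 12 libraries, diamonds leave out the 2 libraries of high mitochondrial share, and crosses add offsets for GC content. Dotted lines mark 1.5-fold; HSPA1A, HSPA1B, DNAJB9, DNAJB1 and DNAJC3 lie to the right of them and the 7 CCT subunits, HSPD1, HSPE1 and HSPA9 to the left under all 3 treatments.

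The 4 genes that rose at all times in AML5 cells also rose in sgEPCR cells. DNAJC12 went from 0.10, 0.35 and 0.09 TPM to 3.12, 1.76 and 3.62 TPM (3.70 ± 0.39, adjusted p = 1.7e-05) and DNAJB5 from 0.24, 1.09 and 0.81 TPM to 4.01, 2.46 and 4.15 TPM (2.44 ± 0.21). The interactions of DNAJC12 (-1.14 ± 0.61) and DNAJB5 (-0.41 ± 0.30) did not pass the threshold. DNAJC6 rose by less than in AML5 cells, from 0.64, 2.49 and 2.09 TPM to 6.87, 3.53 and 5.97 TPM (1.81 ± 0.13; interaction -1.88 ± 0.18, adjusted p = 1.9e-05), and so did DNAJC18 (1.18; interaction -0.79). BAG2 fell in sgEPCR cells (-1.08 ± 0.18, interaction -1.41), as did DNAJC11 (-0.98) and DNAJC2 (-1.0 ± 0.32, adjusted p = 0.022).

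Without UM171, 18 members were higher and 3 lower in sgEPCR cells than in AML5 cells (11.0% and 11.0% of all genes), and 13 higher and 4 lower without the 2 libraries (11.9% and 13.0%), where DNAJB4, DNAJC15, HSPA4L, HSPA9 and HSPB1 were no longer called. This excess of higher calls did not hold under total count scaling, with 3 higher and 5 lower and the median of all genes at -0.25, and was 13 higher and 3 lower under upper quartile scaling. All 3 HSP90 genes were higher with and without the 2 libraries, HSP90B1 by 0.87 ± 0.15, HSP90AA1 by 0.75 and HSP90AB1 by 0.70, as were HSPE1 (0.97), HSPD1 (0.70), HSPA1A (0.85) and DNAJA4 (0.92, adjusted p = 1.5e-05). Most of these calls ended under total count scaling, which left 3 members higher in all, and with limma, which left 1. DNAJB2 (-1.15), HSPA6 (-1.10) and DNAJB9 (-0.76) were the 3 lower genes. In UM171 for 24 h, 18 members were higher and 12 lower in sgEPCR cells (15.3% and 13.6% of all genes), and 18 and 9 without the 2 libraries (17.9% and 15.3%), or 18 and 7 under upper quartile scaling. HSPA1A was higher by 3.43 ± 0.13 (adjusted p = 8.8e-08), HSPA6 by 2.59, HSPA1B by 2.49, DNAJC28 by 1.93 and DNAJB2 by 1.78, while DNAJC6 (-1.11), DNAJA3 (-0.96), DNAJC30 (-0.73), CCT7 (-0.70) and CCT2 (-0.69) were the lowest. Without the 2 libraries CCT3, CCT7, DNAJC11, DNAJC30, HSPD1 and HSPH1 were no longer called. Of the 12 heat-inducible members, 8 were higher and 0 lower in this comparison, or 7 higher and 1 lower without the 2 libraries.

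The same counts with other thresholds are given beside the shares of all genes. With no minimum fold the members called were 20 higher and 32 lower (27.0% and 25.1%) for the response of sgEPCR cells and 17 higher and 25 lower (21.9% and 23.1%) for the interaction. They were 30 higher and 4 lower (17.4% and 16.3%) between the cells in DMSO and 22 higher and 22 lower (20.8% and 22.2%) between the cells in UM171. With an adjusted p under 0.0001 and over 2-fold they were 6 higher and 0 lower (6.99% and 3.33%) for the response of sgEPCR cells and 3 higher and 4 lower (3.60% and 4.17%) for the interaction. They were 0 higher and 0 lower (1.43% and 1.41%) between the cells in DMSO and 7 higher and 1 lower (2.67% and 1.79%) between the cells in UM171.

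The companion genes showed both directions in sgEPCR cells, where 21.5% of all genes were called higher and 16.6% lower for the response and 19.2% and 19.7% for the interaction. Of the 22 genes of the unfolded protein response and endoplasmic reticulum folding, 10 rose in UM171 and 1 fell, and the interaction called 9 higher and 4 lower. Without the 2 libraries these counts were 10 and 1, and 8 and 3. PPP1R15A (GADD34), which reverses the translation block of stressed cells, went from 7.58, 17 and 17.1 TPM to 111, 39.5 and 116 TPM (2.38), and HERPUD1, of degradation at the endoplasmic reticulum, from 24.1, 42.9 and 45.4 TPM to 148, 83.7 and 159 TPM (1.59), each without overlap. The 4 called lower by the interaction were XBP1 (-1.34), a transcription factor of this response that was also the 1 gene to fall (-0.99), SIL1 (-0.86), PDIA4 (-0.63) and ATF4 (-0.60), these 4 being named after their values were seen. Of 13 co-chaperones of HSP90 and HSP70, 0 rose and 4 fell, and the interaction called 0 higher and 6 lower, FKBP5 (-1.88) and FKBP4 (-1.57) the most. Without the 2 libraries 5 fell and the interaction called 6 lower. Of 10 other mitochondrial chaperones and proteases 0 rose and 5 fell, TIMM44 (-1.12) and GRPEL1 (-1.04) the most, and 5 fell without the 2 libraries. The interaction called 3 of these 10 lower, and 6 without the 2 libraries. Among TCP1, PDCL3 and the 6 prefoldins 0 rose and 3 fell, PFDN6 (-0.99) and PFDN2 (-0.72) the most, and the interaction called 5 lower, with the same counts without the 2 libraries.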

How the data were processed

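RNA from 21 OCI-AML5 libraries was sequenced on an Illumina HiSeq 2000 after stranded poly(A) library preparation. Per the labels, the authors trimmed reads with Trimmomatic 0.35, aligned them to GRCh38 with STAR 2.5.1b and deposited RSEM 1.2.28 expected counts per gene. The deposited TPM values, scaled for transcript length and to the same sum in each library, come from the same RSEM run, and the deposited posterior SD of the count, another RSEM column, was read as an error of that split; the study's text also describes another quantification, not used here. Gene symbols came from GENCODE v44, pseudoautosomal Y entries were summed into their X copies, and 57392 of 58174 identifiers had a symbol.

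Expected counts were rounded, filtered with filterByExpr, scaled by TMM and tested with edgeR 4.0.16 (quasi-likelihood, R 4.3.3) in 1 fit of the 15 AML5 libraries (16575 genes) and 1 of the 12 libraries of the sgEPCR comparison (15901 genes). Alternatives used limma 3.58.1, DESeq2 1.42.0, other scalings, filters and thresholds, offsets for GC content and left-out libraries. The members and lists were chosen with earlier results of these data known. Named genes were 29 core members by textbook role, plus up to 5 called members at each end of each comparison with a mean of at least 1 TPM, and from companion lists the 2 called genes of largest change where described; HSPB6, HSPA4, HSPA4L, DNAJC5, DNAJC11, DNAJC15, DNAJC16, DNAJC17 and others outside this rule were named after their values were seen. The scripts were tested on simulated data with known changes. Of 200 changed genes, edgeR called 199 for 72 h against DMSO, with 0 unchanged genes called. For the interaction it called 174 of 200, with 6 unchanged genes called. The simulated sgEPCR comparison had less spread than the real libraries and none of high mitochondrial share, so it did not test those calls at their real spread. No pair of libraries of a group agreed within sampling noise.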

Additional observations from a re-analysis of the deposited data

Results flagged for a closer look

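The interaction term of edgeR's quasi-likelihood test compared the response to 24 h of UM171 in sgEPCR cells with that in AML5 cells. It called 11 of the 75 tested members higher and 23 lower, beside 19.2% and 19.7% of all genes. Listed here are 23 of these called members of both directions. They are 19 of the 29 core genes and others among the 5 at either end of this comparison. Among the 23 listed, the difference (log2, sgEPCR response minus AML5 response) was above 0 for HSPA6 (3.69), DNAJB2 (2.93), HSPA1A (2.58), HSPA1B (2.36), DNAJB9 (2.17), DNAJB1 (1.08) and DNAJC3 (0.94). It was below 0 for all 7 CCT subunits, namely CCT2 (-1.14), CCT3 (-0.92), CCT4 (-1.0), CCT5 (-1.08), CCT6A (-0.98), CCT7 (-1.35) and CCT8 (-0.77). The mitochondrial members HSPD1 (-1.32), HSPE1 (-1.29), HSPA9 (-1.0) and DNAJA3 (-0.95) were below 0 as well, as were HSP90AB1 (-0.94), HSP90AA1 (-0.64), DNAJC6 (-1.88), BAG2 (-1.41) and HSF2 (-1.14). All 23 listed kept their call without the 2 libraries of high mitochondrial share. With limma on log2(TPM + 1) the interaction called 6 members higher and 5 lower in all, so most of the 23 listed calls ended there. The labelled time of the DMSO controls, 72 h for AML5 and 24 h for sgEPCR cells, cannot be told apart from the cells in this difference.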

How the results depend on the processing

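Of 432 counts of members called, 392 stayed within 1.5 times of the reported count. With no minimum fold the counts higher and lower were 16 and 48 at 6 h, 30 and 31 at 24 h, 30 and 34 at 48 h and 15 and 53 at 72 h, with 17 higher for the interaction, 30 higher between the cells in DMSO and 22 lower between them in UM171. With an adjusted p under 0.0001 and over 2-fold, 0 were lower at 6 h, 5 higher and 6 lower at 24 h, 8 and 1 at 48 h, 12 lower at 72 h, 6 and 0 for the sgEPCR response, 3 and 4 for the interaction, 0 and 0 in DMSO and 7 and 1 in UM171. Lower counts with upper quartile scaling were 3 at 6 h, 15 for the sgEPCR response and 7 in UM171, and with total count scaling 1, 11 and, in DMSO, 3 higher and 5 lower. With limma on log2(TPM + 1), where folds of little expressed genes are understated, they were 1 at 6 h, 5 for the sgEPCR response, 6 higher and 5 lower for the interaction, 1 and 1 in DMSO and 9 and 5 in UM171. The cause of these shifts was not tested.

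Leaving out 1 library at a time gave 6 to 6 higher and 6 to 9 lower at 6 h, 10 to 12 and 11 to 12 at 24 h, 11 to 14 and 6 to 8 at 48 h, 8 to 9 and 25 to 25 at 72 h, 15 to 17 and 19 to 26 for the sgEPCR response, and 10 to 13 and 21 to 29 for the interaction. Between the cells these were 13 to 19 and 3 to 4 in DMSO and 17 to 19 and 10 to 14 in UM171. Deviations of libraries with the same replicate number correlated by -0.083 to 0.078 in the AML5 fit and -0.609 to 0.448 in the other, so the numbers were not taken as pairs. With the replicate number as a block, the counts higher and lower were 6 and 7, 11 and 12, 13 and 7, 9 and 25, 15 and 20, 9 and 20, 15 and 2, and 18 and 9 in the same order. With offsets for GC content, chosen after seeing the data, they were 6 and 8, 10 and 14, 13 and 8, 9 and 25, 15 and 22, 15 and 25, 14 and 4, and 19 and 12. Of 3464 comparisons of named calls with an alternative, 178 lost the call, 60 of them with limma, and 0 reversed. The 11 members at 5 counts or fewer in each library could not be tested at this depth.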
